A study of Mus musculus and Homo sapiens with 59 samples.

Results

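The comparison described here sets untreated NIH3T3 fibroblasts labelled as p65 knockout against untreated fibroblasts of the same kind labelled as having no knockout, over every gene of the mouse expression table. NIH3T3 is an established mouse embryonic fibroblast line. The p65ko group and the noko group had 2 libraries each, 4 of the 59 samples of a series on signalling after damage to the plasma membrane. All 4 libraries came from cells carrying hMLKL1–181-2Fv, a fragment of human MLKL fused to domains that a dimerizer can join, grown in DMEM without any dimerizer. A further 4 libraries of the same lines, 2 p65ko and 2 noko, were taken after AP20187, the dimerizer, at 100 nM for 1 h. Another 10 untreated NIH3T3 libraries served as a range: 2 with the same MLKL fragment and no knockout label (181_NT), 2 with that fragment and a control siRNA (NT_siCTR), 2 of cells labelled WT (WT_NT), 2 untreated controls of a digitonin experiment, labelled as carrying no construct (noDig), and 2 with a releasable GSDMD fragment (GD_NT). The labels do not say how p65 was knocked out, which promoter drives the construct, or whether p65ko and noko are single clones or pools. Clonal differences between the lines are therefore possible, and in every result below they cannot be told apart from loss of p65. Nothing in the labels says that the 2 libraries of a group came from separate cultures. The p-values and SE rest on the spread within groups, pooled over all 35 NIH3T3 libraries, and that spread may be technical.

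p65 is the protein made from Rela, 1 of the members of the NF-kB family of transcription factors. In resting fibroblasts most p65 is held in the cytoplasm by IkB proteins, and a stimulus that activates the IKK complex destroys IkB and lets p65 dimers enter the nucleus and switch on inflammatory genes. Those genes include chemokines and cytokines, and also the IkB proteins and deubiquitinating enzymes that switch the pathway off again, so the level of several inhibitors depends on the factor they inhibit.

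Values are TPM, length-scaled shares of a library's transcripts, as the authors deposited them, and a difference is p65ko minus noko on the log2(TPM + 1) scale, which understates changes of low genes. Each replicate pair correlated at 0.992 (p65ko) and 0.994 (noko) across genes. The marker lists of other cell types were mostly near 0: 12 of 14 epithelial markers, 9 of 12 endothelial markers, 8 of 11 adipocyte markers and 7 of 13 macrophage markers lay under 1 TPM in all 4 libraries. The 19 fibroblast markers summed to between 15450 and 15460 TPM in the p65ko libraries, against 16100 to 16160 TPM in the noko libraries. The 9 muscle markers in the table summed to between 111.2 and 111.3 TPM in p65ko, against 46.9 to 48.9 TPM in noko, with 5 of them under 1 TPM throughout. Most of that sum was Tnnt2, a sarcomeric troponin, at 98 and 97.9 TPM in the p65ko libraries, against 38.6 and 36.3 TPM in the noko libraries (log2 difference 1.36 ± 0.11 (SE), limma adjusted p = 4.4e-09). In RNA from a whole culture, more cells of a type and more RNA per cell cannot be told apart.

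Rela itself was the check of the labels. It had 13.6 and 14.1 TPM in the p65ko libraries, against 49.7 and 49.2 TPM in the noko libraries. The p65ko libraries were the lowest of the 14 untreated ones, since the other 10 held 47.1 to 64.3 TPM, and the groups did not overlap (log2 difference -1.76 ± 0.056 (SE), limma adjusted p = 1.23e-15). Rela mRNA, from chr19:5637483-5648130 in mm10, was thus reduced and not lost, and the files do not show which part of the transcript remained. The other 4 subunits did not pass the test at rest. Nfkb1, the p50 precursor, had 51.9 and 52.3 TPM in p65ko and 53 and 52.7 TPM in noko (log2 difference -0.02 ± 0.034 (SE), limma adjusted p = 0.65). Nfkb2, the p52 precursor, had 58.3 and 57.8 TPM in p65ko and 59.8 and 60.5 TPM in noko, Relb had 10.7 and 12 TPM in p65ko and 12.8 and 10.3 TPM in noko, and Rel had 6.59 and 6.86 TPM in p65ko and 6.37 and 6.51 TPM in noko, with adjusted p of 0.436, 0.897 and 0.673 in limma. With the libraries centred on their medians, 3 of the 5 subunits passed as lower, as did 2755 of all 12000 genes. Against the mean of 181_NT and NT_siCTR, 1 of the 5, Rela, passed as lower and 3 as higher, where 47.1% of all genes were higher. Those 3 were Rel (0.377), Relb (0.242) and Nfkb2 (0.115).

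Of 12000 genes tested, 5643 passed the limma test at an adjusted p under 0.05, which is 47.0% of the genes. Of these, 3821 (31.8%) were higher and 1822 (15.2%) lower in p65ko, and the median difference over all genes was 0.08. The balance of the directions depended on scaling: 67.7% of the calls were higher as deposited, against 47.8% after quantile normalization and 47.1% after median centring. Changes of at least 2-fold were rarer, with 227 genes higher (1.89%) and 56 lower (0.467%). Counts for the gene lists below are read against these shares.

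**Figure D1:**
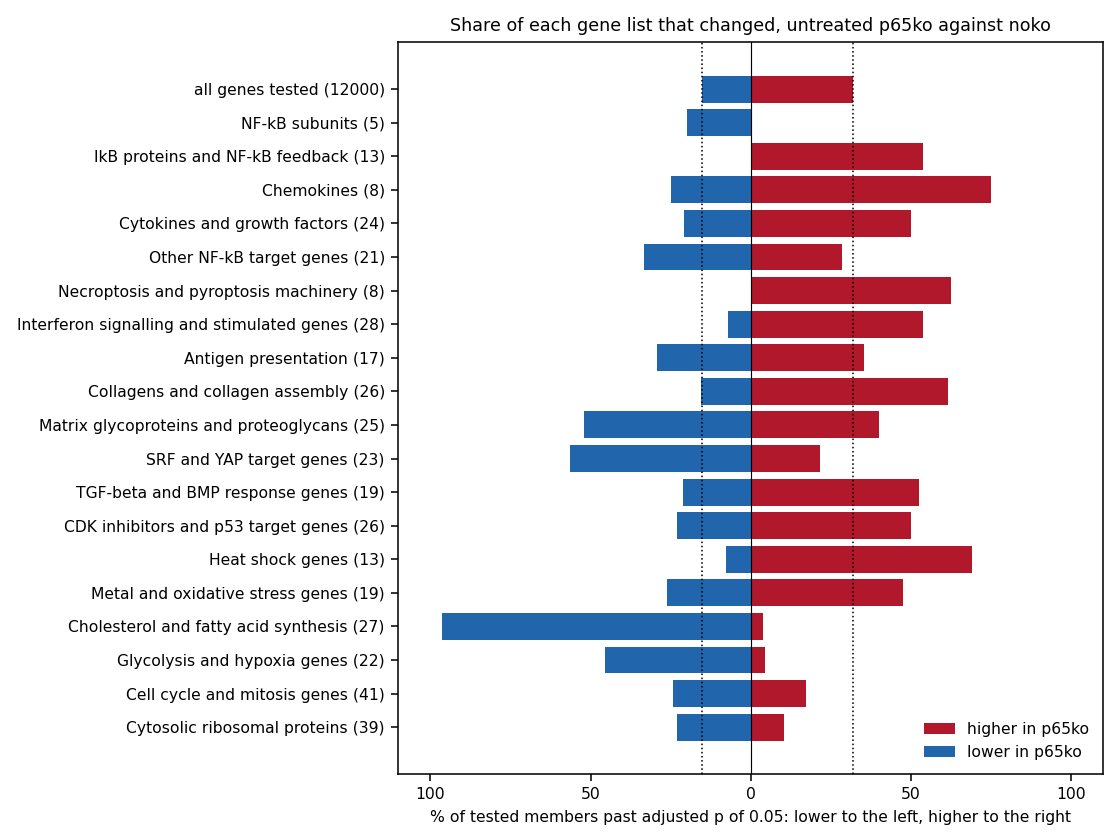
Share of the tested members of each gene list that was higher (red, to the right) or lower (blue, to the left) in untreated p65ko against noko libraries at a limma adjusted p under 0.05, with the number tested in parentheses. The dotted lines mark the shares over all 12000 genes, 31.8% higher and 15.2% lower. Cholesterol and fatty acid synthesis had 26 of 27 members lower.

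The genes through which NF-kB limits itself were higher or did not pass at rest in the cells with less Rela. Of 13 tested IkB and feedback genes, 7 rose, none fell and 6 did not pass, with a median difference of 0.22. After median centring 6 were higher and none lower, and after quantile normalization 6 higher and 1 lower. Against the mean of 181_NT and NT_siCTR, the other untreated MLKL cells, 6 of 14 were higher and 2 lower, with a median of 0.10, where 47.1% of all genes were higher and 19.8% lower. Nfkbia, which encodes IkBa, the inhibitor that p65 itself induces, had 45.2 and 45.6 TPM in the p65ko libraries, against 34.2 and 33.5 TPM in the noko libraries (log2 difference 0.41 ± 0.034 (SE), limma adjusted p = 4.91e-09). Both p65ko values lay above both noko values, and all 4 lay near the 33.4 to 51.9 TPM of the other untreated cells. Zc3h12a, an RNase that degrades inflammatory mRNAs, had 19.6 and 21.5 TPM in the p65ko libraries, against 11.5 and 11.2 TPM in the noko libraries (log2 difference 0.80 ± 0.074 (SE), limma adjusted p = 2.11e-08), and its p65ko libraries were above all 10 others, which reached 7.16 to 12.3 TPM. Tnip2, an A20-binding inhibitor, rose by 0.42 and Otulin, a linear-ubiquitin protease, by 0.30 on the log2 scale (limma adjusted p = 1.13e-05 and 5.92e-05), and Otulin did not pass against 181_NT and NT_siCTR. Tnfaip3, which encodes A20, was low, with 1.39 and 1.35 TPM in p65ko and 1.55 and 1.55 TPM in noko (log2 difference -0.11 ± 0.1 (SE), limma adjusted p = 0.42). After quantile normalization Tnfaip3 passed as lower, at -0.39. Nfkbie, Nfkbiz and Birc3 did not pass, with differences of 0.31, 0.16 and -0.07. Against 181_NT and NT_siCTR Nfkbie and Nfkbiz passed as higher, by 0.35 and 0.92 (limma adjusted p = 0.0188 and 7.8e-09).

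Promoter windows of 3 of the genes that rose are shown because each holds the letters of a kB site. The windows run from 250 bases before to 50 bases after the RefSeq start on GRCm38.p6, and capitals mark GGGNNTTTC, the first 9 letters of a common kB site, on either strand:
Nfkbia, chr12:55492598-55492897, minus strand: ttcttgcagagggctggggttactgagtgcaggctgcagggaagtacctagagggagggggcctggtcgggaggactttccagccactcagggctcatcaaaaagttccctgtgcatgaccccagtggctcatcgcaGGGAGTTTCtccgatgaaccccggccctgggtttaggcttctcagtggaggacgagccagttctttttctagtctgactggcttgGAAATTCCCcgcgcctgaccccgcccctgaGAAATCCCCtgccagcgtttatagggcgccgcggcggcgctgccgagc
Cxcl1, chr5:90890995-90891294, plus strand: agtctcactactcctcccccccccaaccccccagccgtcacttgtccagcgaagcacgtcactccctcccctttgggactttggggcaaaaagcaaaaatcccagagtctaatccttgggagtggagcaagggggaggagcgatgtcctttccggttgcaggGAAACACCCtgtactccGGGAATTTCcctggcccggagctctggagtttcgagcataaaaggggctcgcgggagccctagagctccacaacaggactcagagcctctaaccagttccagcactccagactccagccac
Csf1, chr3:107760420-107760719, minus strand: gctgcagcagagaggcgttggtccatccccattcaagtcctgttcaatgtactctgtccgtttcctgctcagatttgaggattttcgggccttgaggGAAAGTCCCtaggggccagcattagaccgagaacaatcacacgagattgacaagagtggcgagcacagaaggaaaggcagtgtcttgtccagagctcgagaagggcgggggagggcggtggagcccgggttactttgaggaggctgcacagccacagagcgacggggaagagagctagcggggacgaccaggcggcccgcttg
The matches in Nfkbia begin 113 and 28 bases before the start and just after it, those in Cxcl1 88 and 71 bases before it, and that in Csf1 153 bases before it. These letters occur in 4.36% of all 32851 promoter windows, counted singly. The shares by gene that follow count a gene if any of its windows held the letters, so they are not on the same footing. Among tested genes with a window they occurred in 5.31% of the 2917 that were higher, 4.4% of the 1408 that were lower and 5.04% of the 4622 that did not pass. Of the 53 tested genes of the 5 NF-kB lists that had a window, 11 held the motif: Ccl9, Csf1, Cxcl1, Cyld, Il6 and Nfkbia were higher, Rela was lower, and Il18, Nfkb2, Rel and Tnfaip3 did not pass. A match is a description of the letters, not of a bound site.

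Chemokines split by gene. Of 8 tested, 6 rose and 2 fell, under both other scalings as well, against 31.8% and 15.2% of all genes, with a median difference of 0.53. Against the mean of 181_NT and NT_siCTR 4 of 10 were higher and 2 lower, with a median of 0.08, so the larger share of rises was not seen with that control. Ccl2, the main monocyte attractant, had 309.6 and 315 TPM in the p65ko libraries, against 233 and 232 TPM in the noko libraries (log2 difference 0.42 ± 0.051 (SE), limma adjusted p = 7.93e-07). Ccl7, its neighbour and a ligand of the same receptor, had 136 and 141 TPM in the p65ko libraries, against 85.7 and 87 TPM in the noko libraries (log2 difference 0.68 ± 0.074 (SE), limma adjusted p = 2.59e-07). For both genes the p65ko libraries exceeded all 10 other untreated libraries, which held 136 to 237 TPM of Ccl2 and 40.03 to 62.1 TPM of Ccl7. Cxcl1, a neutrophil attractant, had 11.6 and 12.6 TPM in p65ko and 7.07 and 5.93 TPM in noko (log2 difference 0.81 ± 0.099 (SE), limma adjusted p = 1.12e-06), and Cxcl5, of the same class, rose by 0.38 (limma adjusted p = 0.00301, and 0.0572 without noko replicate 2). The p65ko level of Cxcl1 lay inside the 6.58 to 15.3 TPM of the other libraries, and the noko mean of 6.50 TPM was close to the 7.63 TPM of 181_NT and 6.89 TPM of NT_siCTR, against which p65ko was also higher (log2 difference 0.67, limma adjusted p = 8.37e-07). Ccl8 and Ccl9 rose by 0.75 and 0.64 at low levels, and Ccl8 lost its call without p65ko replicate 1 (limma adjusted p = 0.0817). Against 181_NT and NT_siCTR neither passed, with differences of 0.20 for Ccl8 and -0.16 for Ccl9.

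The 2 chemokines that fell were nearly absent from p65ko. Cx3cl1, fractalkine, a membrane-bound chemokine, had 0.17 and 0.0747 TPM in the p65ko libraries, against 4.01 and 3.82 TPM in the noko libraries (log2 difference -2.13 ± 0.11 (SE), limma adjusted p = 1.99e-12). Ccl17 was listed at 0 and 0.234 TPM in the p65ko libraries, against 1.52 and 3.54 TPM in the noko libraries (log2 difference -1.60 ± 0.32 (SE), limma adjusted p = 0.000394). Both genes lie on chromosome 8, at chr8:94772009-94782427 and chr8:94810453-94812036, and the p65ko libraries were below all 10 other libraries for both, which held at least 0.616 TPM of Cx3cl1 and 0.572 TPM of Ccl17.

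Among 24 tested cytokines and growth factors, 12 rose, 5 fell and 7 did not pass (11 higher and 9 lower under both other scalings). Csf1, the growth factor of macrophages, was among the most abundant, with 388 and 378 TPM in the p65ko libraries, against 253 and 252 TPM in the noko libraries (log2 difference 0.60 ± 0.032 (SE), limma adjusted p = 4.42e-12). Clcf1, an IL-6 family cytokine, had 223 and 224 TPM in p65ko and 139 and 139 TPM in noko (log2 difference 0.69 ± 0.037 (SE), limma adjusted p = 6.13e-12). Both groups stood above the 10 other untreated libraries for these 2 genes, which held 118 to 222 TPM of Csf1 and 58.5 to 91 TPM of Clcf1, with p65ko the higher. Il6 was low, with 3.57 and 3.59 TPM in p65ko and 1.18 and 2.12 TPM in noko, and rose by 0.81 (limma adjusted p = 0.00415, and 0.0934 without noko replicate 1), while Lif did not pass (-0.14, and -0.22 with a call after median centring). Hgf, hepatocyte growth factor, fell by 0.57 and Ereg, an EGF receptor ligand, by 0.42 on the log2 scale, but against 181_NT and NT_siCTR Ereg was higher in p65ko by 0.52 (limma adjusted p = 4.39e-10).

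The other NF-kB target genes were mixed, with 6 of 21 higher, 7 lower and 8 not passing (6 higher and 11 lower under both other scalings). Ptgs2, the inducible cyclooxygenase, had 181 and 184 TPM in the p65ko libraries, against 293 and 296 TPM in the noko libraries (log2 difference -0.69 ± 0.048 (SE), limma adjusted p = 2.87e-10). Its noko level stood above the 79.9 to 229.8 TPM of the other untreated libraries and its p65ko level inside it, and against the mean of 181_NT and NT_siCTR p65ko was higher by 0.49. Sqstm1, the autophagy receptor p62, had 499 and 486 TPM in p65ko and 319 and 307 TPM in noko (log2 difference 0.65 ± 0.025 (SE), limma adjusted p = 3.03e-14), and Gadd45b, a stress gene, had 177 and 179 TPM in p65ko and 122 and 127 TPM in noko (log2 difference 0.52 ± 0.051 (SE), limma adjusted p = 5.84e-08). Sod2, the mitochondrial superoxide dismutase, fell by 0.22 (limma adjusted p = 0.00504, and 0.0583 without p65ko replicate 2), and did not pass against 181_NT and NT_siCTR (0.02). Vcam1, an adhesion molecule, did not pass, with 21.7 and 21.7 TPM in p65ko and 22.9 and 23.3 TPM in noko, and was called lower under both other scalings.

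**Figure D2:**
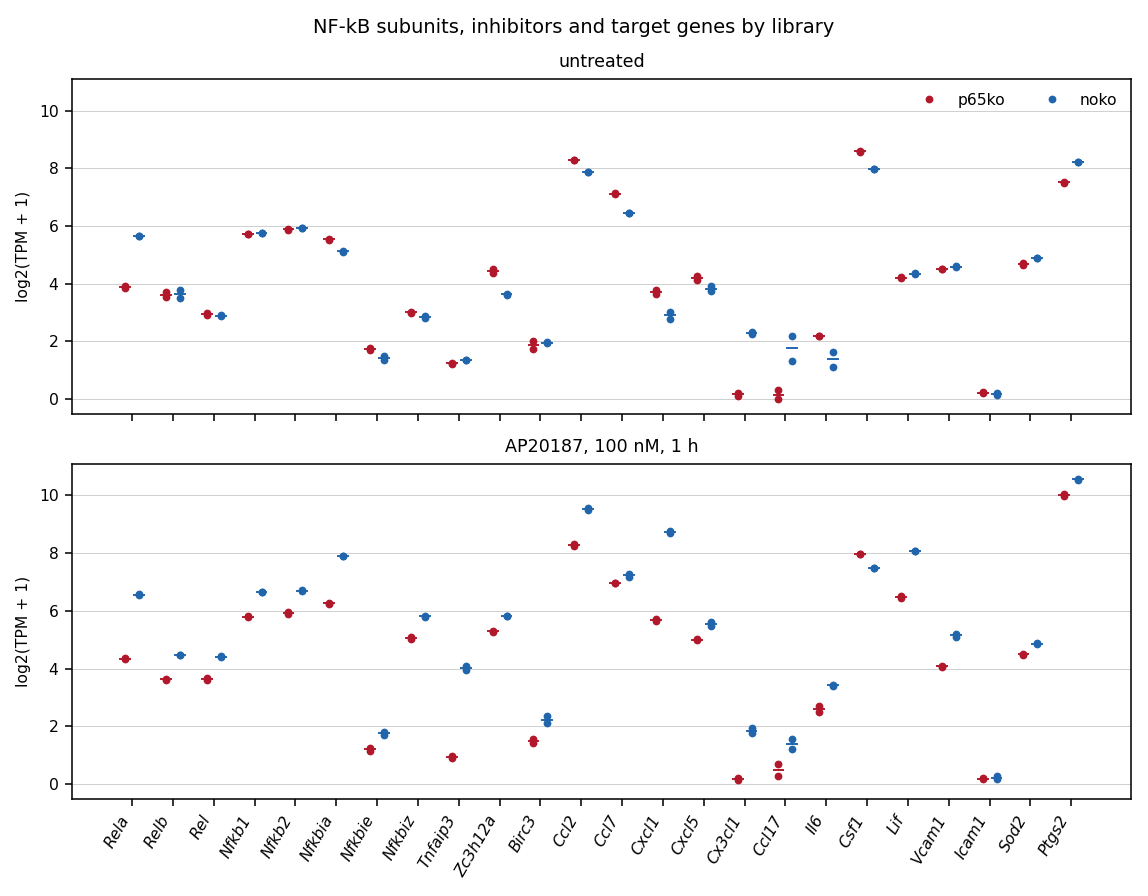
Level of 24 NF-kB subunits, inhibitors and target genes as log2(TPM + 1) in each p65ko (red) and noko (blue) library, untreated above and after AP20187 (100 nM, 1 h) below, with bars at the means of 2 libraries. Rela, Cx3cl1 and Ccl17 are lower in p65ko in both panels, while Nfkbia, Ccl2 and Cxcl1 are higher in p65ko untreated and lower after AP20187.

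The treated libraries of the same lines gave the opposite picture for several of these genes. After AP20187, Nfkbia had 76.4 and 75.1 TPM in p65ko and 239.8 and 238 TPM in noko (log2 difference -1.64) and Cxcl1 had 52.1 and 48.9 TPM in p65ko and 418 and 436 TPM in noko (log2 difference -3.05), all 5 subunits were lower, and 8 of 11 chemokines were lower and 2 higher, against 15.9% and 38.4% of all genes. The difference between the untreated and the treated contrast itself passed for 4.1% of 12212 genes, among them Nfkbia (2.06, limma adjusted p = 4.59e-17) and Cxcl1 (3.87, limma adjusted p = 1.2e-13). Most other untreated differences were also present there. Of the 3821 genes higher at rest, 3090 were higher after AP20187, which is 82.9% of those tested in it and 68.4% of the 4515 higher there. Of the 1822 lower genes, 1365 were lower, 75.9% of those tested and 72.9% of the 1873 lower there. Changes of at least 2-fold, called after AP20187 in 2.16% of genes as higher and 0.587% as lower, were kept in 208 of 217 and 50 of 52 genes, and no such gene was called in the opposite direction.

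Most of the largest falls were genes nearly absent from the p65ko libraries. The rule for the 12 largest falls named 10 genes under 1 TPM in both p65ko libraries and above 5 TPM in both noko libraries, Mir7026 among them, and 8 of the 10 were above 1 TPM in all 10 other untreated libraries. Rgcc, a cell cycle regulator, had 0.1 and 0 TPM in the p65ko libraries, against 30.1 and 29.8 TPM in the noko libraries (log2 difference -4.88 ± 0.085 (SE), limma adjusted p = 4.56e-20). The other 10 libraries held 22.7 to 50.04 TPM. Btg3, of the antiproliferative BTG family, had 0 and 0.073 TPM in the p65ko libraries, against 18.1 and 17.9 TPM in the noko libraries (log2 difference -4.20 ± 0.069 (SE), limma adjusted p = 2.72e-20), against 19.5 to 37.5 TPM elsewhere. Cbr1, a carbonyl reductase, had 0.405 and 0.832 TPM in the p65ko libraries, against 20.8 and 19.3 TPM in the noko libraries (log2 difference -3.71 ± 0.12 (SE), limma adjusted p = 2.36e-15).

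Of these 12 genes 5 lie on the X chromosome, which carries 3.26% of the tested genes with a known position, and 7 of the 56 genes that fell at least 2-fold do. Tspan6, a tetraspanin at chrX:133891068-133898429, had 0.137 and 0.0938 TPM in the p65ko libraries, against 12.2 and 12.1 TPM in the noko libraries (log2 difference -3.56 ± 0.082 (SE), limma adjusted p = 6.21e-18). Bhlhb9, at chrX:135797594-135891081, had 1.09 and 1.46 TPM in p65ko and 20.8 and 22.5 TPM in noko (log2 difference -3.32 ± 0.093 (SE), limma adjusted p = 1.32e-16). Rhox5, a homeobox gene of the reproductive cluster, had 0.833 and 0.367 TPM in p65ko and 11.8 and 9.99 TPM in noko, but it ranged over 10.5 to 317 TPM in the other untreated libraries. Hs6st2, a heparan sulfate sulfotransferase, and Mum1l1 complete the 5, with differences of -2.14 and -1.93. Over the whole X chromosome the median difference was 0.11, with 36.4% of genes higher and 21% lower, so these losses were not shared by the chromosome.

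The remaining falls of that size were Scara3, a scavenger receptor family member on chromosome 14 (0.0668 and 0.0915 TPM in p65ko and 9.77 and 10.3 TPM in noko), Gap43, the growth cone protein, on chromosome 16 (0.13 and 0 TPM in p65ko and 6.49 and 6.3 TPM in noko), and Mt2, described below. For Gap43 both noko libraries lay below the other untreated libraries too, which held 8.86 to 23.8 TPM. Hoxa10, a homeobox gene, was also close to silent, with 0.0364 and 0 TPM in the p65ko libraries, against 2.13 and 1.98 TPM in the noko libraries (log2 difference -1.58 ± 0.13 (SE), limma adjusted p = 4.06e-09), whereas Hoxb6 rose by 1.12. Over 18 tested Hox genes 5 rose and 5 fell. Mir7026 met the rule for falls, and Mir6992 and Mir5098 the rule for rises; these rows are hairpin genes shorter than 120 bases, listed at 0 in both libraries of 1 group, and after AP20187 Mir7026 and Mir6992 did not pass and Mir5098 was not tested.

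**Figure D3:**
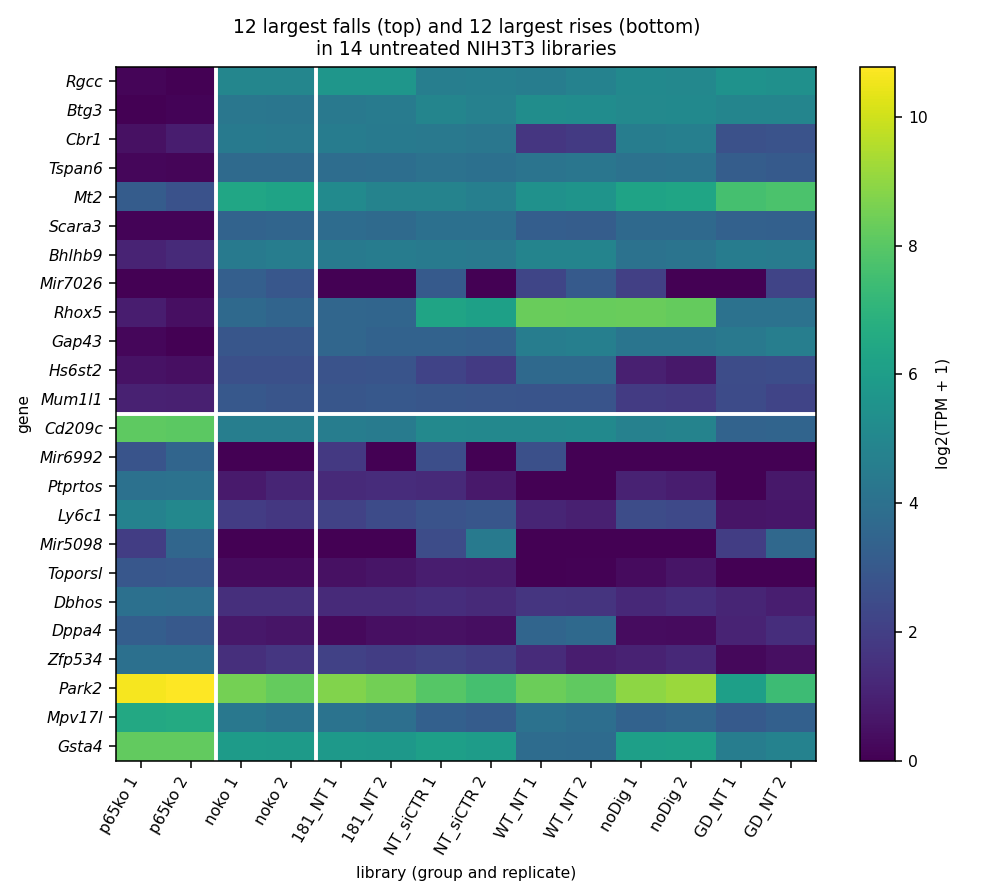
Level, as log2(TPM + 1), of the 12 genes with the largest falls (top) and the 12 with the largest rises (bottom) in the 2 p65ko, the 2 noko and the 10 other untreated NIH3T3 libraries. For most rows the p65ko columns stand apart and noko is nearer to the other libraries, though noko lies below all 10 of them for Btg3 and Gap43. Several rows vary among those 10 as well, among them Cbr1, Mt2, Rhox5, Hs6st2, Dppa4, Park2 and the 3 Mir rows.

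The largest rises included genes of very different abundance. Cd209c, a C-type lectin of the DC-SIGN family, had 271 and 266 TPM in the p65ko libraries, against 23.7 and 23.2 TPM in the noko libraries (log2 difference 3.46 ± 0.086 (SE), limma adjusted p = 1.86e-17), and the other 10 libraries held 9.81 to 34.2 TPM. Ly6c1, a GPI-anchored surface protein known from leukocytes and endothelium, had 26.7 and 31.4 TPM in the p65ko libraries, against 2.78 and 2.39 TPM in the noko libraries (log2 difference 3.06 ± 0.18 (SE), limma adjusted p = 2.75e-11). Gsta4, a glutathione transferase for lipid aldehydes, had 292 and 294 TPM in the p65ko libraries, against 58.8 and 57 TPM in the noko libraries (log2 difference 2.32 ± 0.081 (SE), limma adjusted p = 5.85e-15), against 12.7 to 69.2 TPM elsewhere. Each of these 3 belongs to a family with similar copies, between which reads could have been divided.

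Toporsl, at chr4:52596274-52612430, was all but silent outside p65ko, with 6.58 and 7.1 TPM in the p65ko libraries, against 0.24 and 0.252 TPM in the noko libraries (log2 difference 2.65 ± 0.12 (SE), limma adjusted p = 3.68e-13). Dppa4, known from pluripotent cells, had 8.41 and 7 TPM in p65ko and 0.635 and 0.527 TPM in noko, but both WT_NT libraries held more, at 10.57 and 12.05 TPM. Zfp534, a zinc finger protein, had 14.7 and 14.9 TPM in p65ko and 1.76 and 2.23 TPM in noko, and Mpv17l, a membrane protein of mitochondria and peroxisomes, had 89.7 and 95 TPM in p65ko and 18.9 and 16.4 TPM in noko. The antisense genes Ptprtos and Dbhos rose by 3.09 and 2.52; the use of strand in the quantification is not stated in the labels, so reads from either strand cannot be separated. Park2, a symbol without a position in the annotation used, was abundant throughout, with 1596 and 1758 TPM in p65ko and 368 and 296 TPM in noko (log2 difference 2.34 ± 0.25 (SE), limma adjusted p = 1.76e-07) and 67.4 to 577 TPM in the other libraries. Long noncoding genes and numbered Zfp genes were higher more often than the 31.8% of all genes, in 39% of 415 and 42.4% of 297, with median differences of 0.28 and 0.19. Low genes could pass the filter through the p65ko libraries alone. Those libraries held 11965 and 11945 genes at 1 TPM or more, against 11639 and 11640 in noko. The shares of these classes were not computed under the other scalings.

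Genes of cholesterol and fatty acid synthesis were nearly all lower. Cells make cholesterol and unsaturated fatty acids through enzymes whose genes are switched on together by SREBP factors when sterols are low. Of 27 tested genes of this list 26 fell and 1, Srebf1, passed as higher (limma adjusted p of 0.0764 to 0.33 without p65ko replicate 2 or either noko replicate), with a median difference of -0.65; after quantile normalization and after median centring 26 fell and none rose. Lss, lanosterol synthase, had 33.9 and 33.2 TPM in the p65ko libraries, against 79 and 78.7 TPM in the noko libraries (log2 difference -1.21 ± 0.035 (SE), limma adjusted p = 3.08e-16). Fdft1, squalene synthase, had 47.2 and 46.8 TPM in the p65ko libraries, against 104 and 105 TPM in the noko libraries (log2 difference -1.14 ± 0.028 (SE), limma adjusted p = 1.86e-17). Insig1, a sterol sensor, had 250.3 and 251 TPM in the p65ko libraries, against 425 and 426 TPM in the noko libraries (log2 difference -0.76 ± 0.025 (SE), limma adjusted p = 2.36e-15). Scd2, a fatty acid desaturase, had 484 and 489 TPM in p65ko and 789 and 813 TPM in noko (log2 difference -0.72 ± 0.029 (SE), limma adjusted p = 8.86e-14). The groups did not overlap for any of these 4 genes, and the list had 24 of 27 members lower after AP20187.

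The same list looked different against the other untreated cells. In 17 of the 27 genes both noko libraries lay outside the range of the 10 other libraries, and in 5 both p65ko libraries did. Against 181_NT, whose cells carry the same MLKL fragment, 21 of the 27 p65ko means and 27 of the 27 noko means were higher. Against NT_siCTR the counts were 21 for p65ko and 26 for noko. Against WT_NT they were 2 for p65ko and 20 for noko. Insig1, for example, averaged 250.6 TPM in p65ko, 425.6 TPM in noko, 318.7 TPM in WT_NT, 175.5 TPM in 181_NT and 102.6 TPM in NT_siCTR. Set against the mean of 181_NT and NT_siCTR, the list had 19 members higher in p65ko (47.1% of all genes were) and 6 lower (19.8%), with a median of 0.22. The direction of this list in p65ko therefore turned on which untreated MLKL cells it was compared with. These comparisons share the p65ko libraries.

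**Figure D4:**
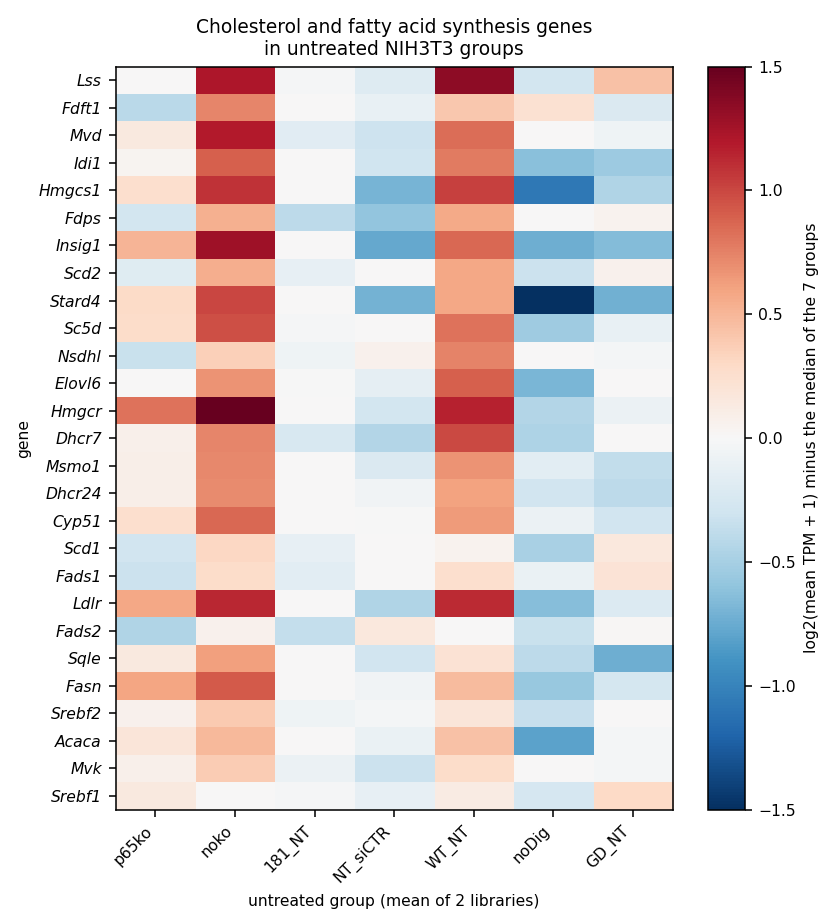
Cholesterol and fatty acid synthesis genes (rows, ordered by their p65ko minus noko difference) in 7 untreated NIH3T3 groups (columns, means of 2 libraries), as log2(mean TPM + 1) minus the median of the 7 groups. The noko and WT_NT columns are the highest for most genes, and p65ko lies nearer to the others.

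Of the tested genes of the list with a window, 1 of 17, Hmgcs1, held TCACNCCAC on either strand, the letters of the classic sterol element. Counted by gene, these letters occurred in 1.7% of the 1408 lower genes, and counted by single window in 1.24% of all windows. The promoter of Hmgcs1, which encodes the synthase at the entry of the pathway, is shown for this reason:
Hmgcs1, chr13:119690101-119690400, plus strand: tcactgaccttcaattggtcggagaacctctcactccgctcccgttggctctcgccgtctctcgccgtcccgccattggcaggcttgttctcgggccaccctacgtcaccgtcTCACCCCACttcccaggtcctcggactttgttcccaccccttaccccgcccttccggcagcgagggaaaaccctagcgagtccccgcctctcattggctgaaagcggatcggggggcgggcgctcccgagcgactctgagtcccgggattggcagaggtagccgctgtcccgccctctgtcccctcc
The match begins 137 bases before the start. Hmgcs1 had 168 and 167 TPM in the p65ko libraries, against 302 and 300.2 TPM in the noko libraries (log2 difference -0.84 ± 0.039 (SE), limma adjusted p = 4.66e-13).

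Of the metallothioneins, small zinc-binding proteins, Mt2 fell and its neighbour Mt1 did not pass. Mt2 had 7.83 and 5.57 TPM in the p65ko libraries, against 81.7 and 76.2 TPM in the noko libraries (log2 difference -3.39 ± 0.13 (SE), limma adjusted p = 3.24e-14), and p65ko stood below the 24.1 to 209 TPM of the other libraries. Mt1, 6 kb away on the same strand, had 608 and 587 TPM in p65ko and 670.1 and 628 TPM in noko, and the log2 difference of -0.12 did not pass (limma adjusted p = 0.163), though it passed after median centring, at -0.20. After AP20187 the difference in Mt2 was -4.39. The wider list of metal and oxidative stress genes had 9 of 19 members higher and 5 lower, and 5 higher and 7 lower after median centring. Hmox1, heme oxygenase, had 149.9 and 144 TPM in p65ko and 229 and 222 TPM in noko (log2 difference -0.61 ± 0.047 (SE), limma adjusted p = 1.45e-09), yet both groups stood above the 33.9 to 107 TPM of the other untreated libraries.

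Contractile and matrix genes changed in both directions. Of 23 tested SRF and YAP target genes 13 fell and 5 rose, against 15.2% and 31.8% of all genes, with a median difference of -0.17. Against the mean of 181_NT and NT_siCTR 8 of 23 were lower and 9 higher, where 19.8% of all genes were lower and 47.1% higher. The median was 0.008 there, so the median fall was not seen with that control. Tagln, an actin-binding marker of smooth muscle and myofibroblasts, had 20.2 and 21.2 TPM in the p65ko libraries, against 49.6 and 52.9 TPM in the noko libraries (log2 difference -1.27 ± 0.076 (SE), limma adjusted p = 2.99e-11), with p65ko below all 10 other libraries. Acta2, smooth muscle actin, had 29.3 and 27.1 TPM in p65ko and 53.8 and 54.5 TPM in noko (log2 difference -0.92 ± 0.06 (SE), limma adjusted p = 1.12e-10), and Tpm2, a tropomyosin, had 53.7 and 54.1 TPM in p65ko and 83.7 and 86.7 TPM in noko (log2 difference -0.65 ± 0.031 (SE), limma adjusted p = 7.77e-13). Acta2 averaged less in WT_NT, at 16.4 TPM, than in p65ko, and the most in GD_NT, at 66.7 TPM. Fhl2, a LIM protein of the same list, went the other way, with 60.4 and 61.6 TPM in p65ko and 37.4 and 36.1 TPM in noko (log2 difference 0.72 ± 0.066 (SE), limma adjusted p = 2.4e-08).

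Collagen and collagen assembly genes rose in 16 of 26 and fell in 4, where 31.8% of all genes rose and 15.2% fell. After median centring 13 rose and 7 fell. Loxl2, a lysyl oxidase that crosslinks collagen, had 18.6 and 20.6 TPM in the p65ko libraries, against 5.03 and 3.59 TPM in the noko libraries (log2 difference 1.97 ± 0.16 (SE), limma adjusted p = 3.42e-09). Among 25 matrix glycoproteins and proteoglycans 10 rose and 13 fell. Postn, periostin, had 9.42 and 9.97 TPM in p65ko and 2.4 and 2.37 TPM in noko (log2 difference 1.66 ± 0.083 (SE), limma adjusted p = 1.9e-12), while Fbn1, fibrillin, had 5.18 and 5.06 TPM in p65ko and 11.6 and 11.6 TPM in noko (log2 difference -1.04 ± 0.056 (SE), limma adjusted p = 5.96e-12). Tnc and Fbln5, tenascin C and fibulin, fell by 0.60 and 0.58. The 17 tested fibroblast markers went both ways, with 7 higher, 6 lower and a median difference of 0.06, against 31.8% and 15.2% of all genes. Postn was among those that rose. Of those that fell, Thy1, a surface protein, had 109.9 and 105 TPM in p65ko and 178 and 174 TPM in noko (log2 difference -0.71 ± 0.039 (SE), limma adjusted p = 9.2e-12). Prrx1, a mesenchymal homeobox factor, had 111 and 114 TPM in p65ko and 186 and 185 TPM in noko (log2 difference -0.72 ± 0.044 (SE), limma adjusted p = 5.49e-11).

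Interferon and antigen presentation genes carried single large changes. Of 28 tested interferon genes 15 rose and 2 fell (11 and 2 under both other scalings), against 31.8% and 15.2% of all genes. Against the mean of 181_NT and NT_siCTR 14 of 28 were higher and 3 lower, where 47.1% of all genes were higher and 19.8% lower. The share of rises thus lay close to that of all genes with that control. Xaf1, an interferon-stimulated regulator of apoptosis, had 6.9 and 8.84 TPM in the p65ko libraries, against 1.87 and 1.85 TPM in the noko libraries (log2 difference 1.62 ± 0.14 (SE), limma adjusted p = 1.32e-08), and the double-stranded RNA kinase gene Eif2ak2 rose by 0.41. In antigen presentation, 6 of 17 genes rose and 5 fell. H2-K1, a classical class I gene, had 5.23 and 5.36 TPM in p65ko and 10.2 and 11.4 TPM in noko (log2 difference -0.90 ± 0.091 (SE), limma adjusted p = 8.79e-08), with p65ko below every other library. Tapbpl, a class I peptide editor, had 37.2 and 42.8 TPM in p65ko and 9 and 9.64 TPM in noko (log2 difference 1.99 ± 0.11 (SE), limma adjusted p = 1.57e-11). H2-T23, a nonclassical class I gene in a family of close copies, had 449.9 and 492 TPM in p65ko and 127 and 107 TPM in noko (log2 difference 2.00 ± 0.23 (SE), limma adjusted p = 6.1e-07).

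Of 8 tested genes of the necroptosis and pyroptosis machinery 5 rose, none fell and 3 did not pass, where 31.8% of all genes rose and 15.2% fell. After median centring 2 of the 8 passed as higher, as did 2456 of all 12000 genes. Casp4, the inflammatory caspase that senses lipopolysaccharide, had 19 and 18.2 TPM in the p65ko libraries, against 7.32 and 6.78 TPM in the noko libraries (log2 difference 1.28 ± 0.11 (SE), limma adjusted p = 6.94e-09). Gsdmd, the pore protein that such caspases cut, rose by 0.41 (limma adjusted p = 0.000163). Mlkl, the executioner of necroptosis, did not pass, with 65.2 and 62.8 TPM in p65ko and 66.2 and 65.1 TPM in noko (log2 difference -0.04 ± 0.056 (SE), limma adjusted p = 0.635).

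Of 26 tested CDK inhibitor and p53 target genes 13 rose and 6 fell, where 31.8% of all genes rose and 15.2% fell. After median centring 10 rose and 6 fell. Mdm2, the p53 ubiquitin ligase, had 242 and 246 TPM in p65ko and 160.1 and 162 TPM in noko (log2 difference 0.60 ± 0.036 (SE), limma adjusted p = 2.95e-11), Gadd45a had 45.2 and 48 TPM in p65ko and 23.6 and 22.4 TPM in noko (log2 difference 0.99 ± 0.066 (SE), limma adjusted p = 1.73e-10), and Trp53inp1 had 22.9 and 24.9 TPM in p65ko and 11.1 and 11.8 TPM in noko (log2 difference 1.00 ± 0.067 (SE), limma adjusted p = 1.68e-10). Tnfrsf10b, a death receptor, fell by 0.61. Of 13 heat shock genes 9 rose and 1 fell, against the same shares, and after median centring 5 rose and 3 fell. Cryab, the small heat shock protein alphaB-crystallin, had 284 and 279 TPM in the p65ko libraries, against 104 and 106 TPM in the noko libraries (log2 difference 1.41 ± 0.053 (SE), limma adjusted p = 1.79e-14), above all 10 other libraries. Glycolysis and hypoxia genes fell in 10 of 22 and rose in 1, against 15.2% and 31.8% of all genes. Slc2a1, the glucose transporter, had 122 and 116 TPM in p65ko and 170.4 and 171 TPM in noko (log2 difference -0.52 ± 0.036 (SE), limma adjusted p = 3.11e-10). In 41 cell cycle and mitosis genes 7 rose, 10 fell and 24 did not pass, with a median of 0.01.

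Differences also followed position in the genome. By chromosome, the median difference ranged between -0.21 on chromosome 14 and 0.18 on chromosome 11. Chromosomes 10, 14 and 19 had 40.5%, 47.3% and 43.8% of their tested genes lower, against 15.2% over all genes, and chromosome 11 had 50.7% higher, against 31.8%. The treated libraries gave medians of -0.08, -0.19 and -0.12 on chromosomes 10, 14 and 19, and 0.17 on chromosome 11. For noko against 181_NT the same 4 medians were 0.09, 0.04, 0.06 and 0.07, none of them negative.

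On chromosome 14 the change came in a step between the gene starts at 49172226 and 50765415 (mm10). The 160 tested genes before it had a median of 0.22, with 83 higher and 6 lower. The 227 after it had a median of -0.42, with 4 higher and 177 lower. Chromosome 1 had a smaller step near 136.5 Mb, with medians of 0.14 before it and -0.09 after it. Chromosome 10 was mixed along its length. The 20 tested genes with starts from 127329882 to 128232065 had 16 lower and 0 higher. The 20 from 80852821 to 81271597 had 9 higher and 0 lower, and the 20 from 112925430 to 118141811 had 12 higher and 0 lower. The places of these steps and stretches were chosen from the values, so the split counts are a description.

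On chromosome 19 the run of rises ended near Rela, and falls became common farther out on its telomeric side. Rnaseh2c and Kat5, the nearest tested genes on the centromeric side, already differed by -0.20 (not passed) and -0.15 (lower). Of 78 tested genes on its centromeric side 60 rose and 2 fell, with a median of 0.33. Of 323 on its telomeric side 25 rose and 173 fell, with a median of -0.21. After AP20187 the medians were 0.39 and -0.19, and for noko against 181_NT they were 0.03 and 0.08. Among the 20 tested genes nearest to Rela on the centromeric side 17 rose and 1 fell; among the 20 nearest on the telomeric side, reaching 425.3 kb, 3 rose and 4 fell. Clcf1, described above, lies on the centromeric side at chr19:4214238-4223490. Cholesterol genes were lower on other chromosomes too: leaving out chromosomes 10, 14 and 19, 20 of 21 fell.

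**Figure D5:**
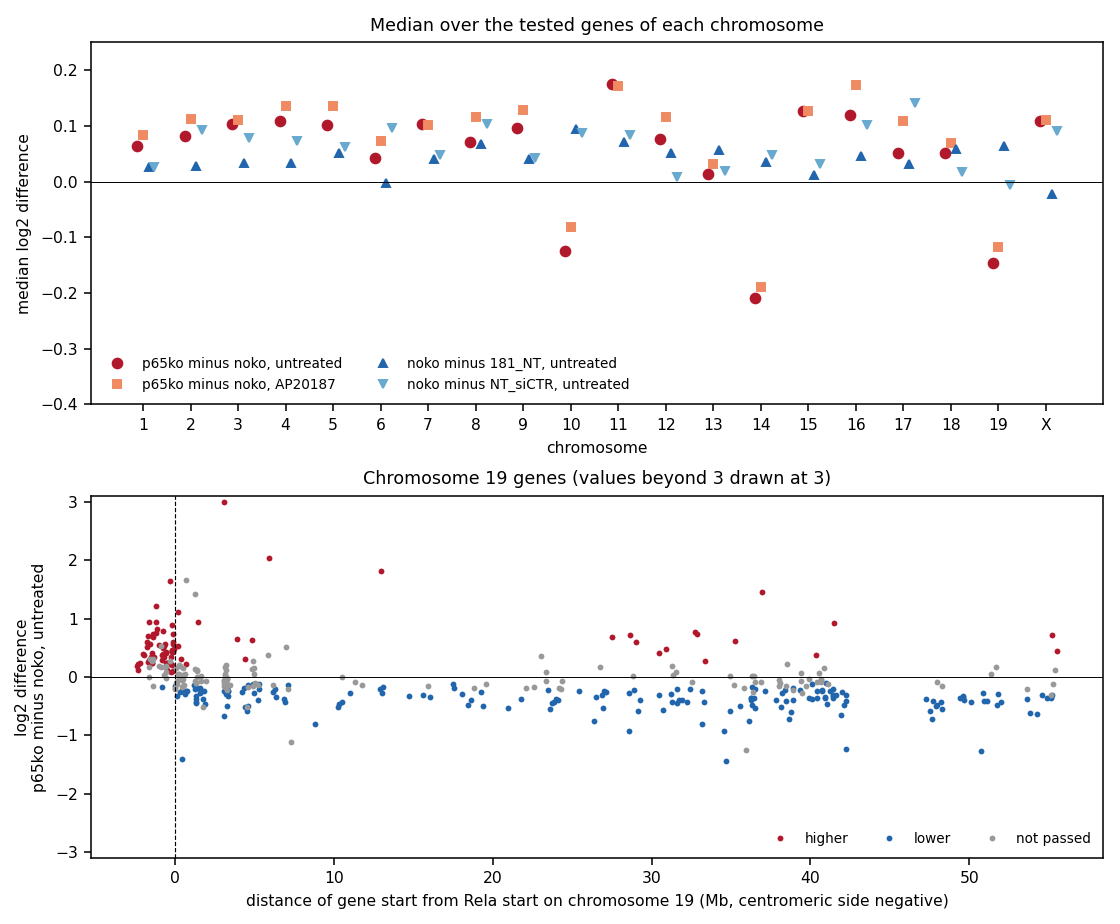
Top, median log2 difference over the tested genes of each chromosome for p65ko minus noko (untreated, circles; AP20187, squares) and for noko minus 181_NT and noko minus NT_siCTR (triangles). Bottom, log2 difference of each tested gene of chromosome 19, untreated p65ko minus noko, against the distance of its start from that of Rela in Mb (red higher, blue lower, grey not passed). Chromosomes 10, 14 and 19 lie below 0 in p65ko, and on chromosome 19 genes left of Rela are mostly above 0 and genes right of it mostly below.

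Lines other than p65ko also differed from each other by many genes. Untreated noko against 181_NT gave 5113 genes past the threshold of 11703 (43.7%), and noko against NT_siCTR 6291 of 11693 (53.8%). NT_siCTR against 181_NT, neither of which is part of the p65 experiment, gave 5326 of 11576 (46.0%). Genes at least 2-fold apart numbered 171 for noko against 181_NT (135 higher, 1.15%, and 36 lower, 0.308%) and 295 for noko against NT_siCTR (236 higher, 2.02%, and 59 lower, 0.505%), but only 143 for NT_siCTR against 181_NT (69 higher, 0.596%, and 74 lower, 0.639%), beside the 283 between p65ko and noko. Untreated p65ko against the mean of 181_NT and NT_siCTR, a control of 4 libraries, gave 8073 of 12065 genes (66.9%), with 576 at least 2-fold apart (495 higher, 4.1%, and 81 lower, 0.671%). In the 5643 genes that differed between p65ko and noko, both p65ko libraries but not noko lay outside the 10 other untreated libraries in 38.7%, both noko libraries but not p65ko in 6.93%, and neither in 38.6%. Over all 12000 genes tested these shares were 22.8%, 5.22% and 56%. Among the 2-fold changes p65ko alone lay outside in 180 of 227 higher genes (79.3%) and 39 of 56 lower genes (69.6%).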

How the data were processed

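PolyA RNA of NIH3T3 cells was sequenced, and the values used are TPM per gene, deposited by the authors for all mouse libraries in 1 table. Per the submitters' processing notes, Salmon and the mm10 build were used; neither they nor the labels give a version, an annotation or a filter. TPM keeps no depth, so the depth of each library is unknown and no counting interval is given. TPM columns summed to between 999910 and 999967 in the 8 p65ko and noko libraries.

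From the deposited TPM values, log2(TPM + 1) was modelled by limma 3.58.1 with a mean-variance trend (R 4.3.3), in 1 design for all 35 NIH3T3 libraries in 18 groups, with 17 residual degrees of freedom. Genes with at least 1 TPM in at least 2 libraries of a comparison were tested (12000 of 19407), and p-values were adjusted over them by Benjamini-Hochberg, with a threshold of 0.05. Symbols were matched to GENCODE vM21 (mm10) for positions, for 11527 of the genes tested, and to RefSeq promoters (GRCm38.p6). Genes named are the 12 largest rises and 12 largest falls with groups that did not overlap and a mean of at least 5 TPM, without predicted genes and pseudogenes; up to 4 members of each of 38 lists by smallest p; and a fixed set of NF-kB and necroptosis genes. Ccl8, Ccl9, Ccl17, Cyld, Il18, Hmgcs1, Srebf1 and Mt1 were added after their values were seen. An item that the rule names is not reported here. The members and lists were chosen with earlier results of these data known. Alternatives were other pseudocounts, scalings, filters and fits, other untreated cells as control, and leaving out each library.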

Additional observations from a re-analysis of the deposited data

Results flagged for a closer look

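For 34 of the genes named, the p65ko minus noko difference itself differed between untreated and AP20187-treated libraries in limma, over all genes tested; each value in parentheses is the untreated minus the treated log2 difference. Among NF-kB subunits these were Nfkb1 (0.841), Rel (0.832), Relb (0.822), Nfkb2 (0.71) and Rela (0.443). Among inhibitors and feedback genes they were Tnfaip3 (2.97), Nfkbia (2.06), Zc3h12a (1.35), Nfkbiz (0.918) and Nfkbie (0.853). Chemokines, cytokines and growth factors with such a difference were Cxcl1 (3.87), Ccl2 (1.66), Il6 (1.63), Lif (1.46), Ccl7 (0.959), Cxcl5 (0.924), Ereg (0.392) and Clcf1 (0.26). The positive values mean that p65ko stood lower relative to noko after AP20187 than at rest. Other target and stress genes were Vcam1 (0.99), Mt2 (0.997), Sqstm1 (0.609), Gadd45a (0.518) and Mt1 (0.503). Negative values, where p65ko stood higher relative to noko after AP20187 than at rest, were found for the cholesterol and fatty acid genes Fdft1 (-0.224), Hmgcs1 (-0.228), Scd2 (-0.275), Insig1 (-0.288) and Lss (-0.344) and for Tnc (-0.249), Acta2 (-0.384), Trp53inp1 (-0.47), Scara3 (-0.544), Hoxa10 (-0.682) and Rhox5 (-0.709).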

How the results depend on the processing

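The higher and lower counts of p65ko against noko, 3821 and 1822, were 2585 and 2819 after quantile normalization and 2456 and 2755 after median centring. After AP20187 the counts of 4515 higher and 1873 lower became 2955 and 2939, and 2689 and 3267. For noko against 181_NT the 1915 lower genes became 2908 and 2971. The other alternatives kept these counts within 1.5 times, and leaving out 1 library each gave 2724 to 2925 higher and 1422 to 1502 lower genes untreated. Rela stayed between -1.94 and -1.74. With the mean of 181_NT and NT_siCTR as the control in place of noko, the differences of these genes changed sign: Ccl9 (-0.155), Ereg (0.52), Hmgcs1 (0.597), Hmox1 (1.69), Insig1 (0.896), Lif (1.24), Lss (0.105), Mt1 (0.843), Nfkb2 (0.115), Ptgs2 (0.487), Relb (0.242) and Sod2 (0.0166). The cause was not tested. Same-numbered libraries deviated with a correlation of -0.0249 untreated and -0.106 after AP20187, so the numbers are not read as pairs; a replicate block gave 3765 higher and 1806 lower genes untreated, and 4472 and 1855 after AP20187, where the crossed pairing, chosen after seeing the data, gave 4466 and 1854. Of 94 genes named, 1, Srebf1, lost its call under the block (adjusted p = 0.0566). Leaving out 1 library ended the calls of Ccl8, Cxcl5, Il6, Sod2, Srebf1, Mir5098, Mir6992 and Mir7026. TPM values give no depth, so low genes carry no stated counting error.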
